A study of Mus musculus with 6 samples.

Results

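The genes that take up fatty acids and burn them in mitochondria were examined in embryonic mouse hearts labelled as carrying a cardiomyocyte deletion of the mitochondrial ribosomal protein gene Mrps5, and in control hearts. The 33 genes were listed by name for their place in the pathway, with no threshold on their values, although earlier results of these data were known. They stand for 33 of the 26199 genes in the deposited table, and all 33 were found and passed the filter on low values. By step, 3 genes act in uptake, 3 in activation, 4 in the carnitine shuttle, 14 in oxidation, 3 in electron transfer, 2 are thioesterases and 4 set malonyl-CoA or the choice of fuel.

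Control hearts were Mrps5 fl/fl, with both alleles floxed and no Cre, and mutant hearts were Mrps5 fl/fl; cTNT-Cre, with the same floxed alleles and a Cre transgene driven by the cardiac troponin T promoter, which is active in cardiomyocytes and leaves the gene intact in the other cells of the heart. This genotype is that of the labels, and the study's main text gives it for such embryos too. A supplementary legend of the study writes Mrps5 fl/+ for cTnT-Cre embryos of this stage, with a single floxed allele. The embryos were littermates collected at embryonic day 12 by the labels, and the study's text gives a slightly later age. Each group had 3 libraries of ribosomal RNA-depleted total RNA, and each library was a pool of 5 hearts. Values are FPKM, fragment counts scaled by transcript length and library size, summed over the transcripts of a gene. Levels can be compared between genes. Between libraries they are relative, so a larger share of other transcripts, such as those of red blood cells, can lower them. The number of reads behind each library is unknown. Values for single libraries are listed in the order of replicates 1, 2 and 3, and mutant replicate 3 always comes last.

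Long-chain fatty acids enter heart muscle cells with the help of membrane transporters, are bound in the cytosol, and are coupled to coenzyme A. The carnitine shuttle carries the acyl group across the mitochondrial membranes. Inside, repeated rounds of dehydrogenation, hydration, a further dehydrogenation and thiolysis shorten the chain, and the electrons from the initial dehydrogenation pass through the electron transfer flavoprotein to ubiquinone. Malonyl-CoA blocks entry at the shuttle. The fetal heart relies mostly on glucose and lactate and turns to fatty acids as its main fuel after birth.

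The targeted gene was measured first. Mrps5 measured 9.65, 11.4 and 10.4 FPKM in the controls and 5.28, 7.41 and 10.4 FPKM in the mutants, and the last of these, from the library labelled mutant replicate 3, was inside the control range. Its log2 fold change was -0.44 with a standard error of 0.19 (limma, adjusted p = 0.339), and -0.66 without that library (limma, adjusted p = 0.0693). Without mutant replicate 1 it was -0.23 (limma, unadjusted p = 0.169). Values without the library labelled mutant replicate 3 are therefore given beside many of the main results. Summed FPKM ranged from 454692 to 515952, and between 12832 and 13516 genes reached an FPKM of 1 in a library. Erythroid marker genes made up 12.0% to 13.3% of summed FPKM in the controls, and 23.5%, 10.8% and 22.0% in mutant replicates 1, 2 and 3.

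Few genes of the pathway differed beyond the spread between libraries. Among the 33 genes, 27 had a negative log2 fold change and 6 a positive one, and the median was -0.11, where the median of all 13262 genes tested was -0.02 and 55.0% of them were below 0. Without the library labelled mutant replicate 3 the median of the 33 genes was -0.18 and that of all genes tested -0.01. At an unadjusted limma p under 0.05, 5 of the 33 genes were lower, or 15.2%, beside 9.43% of all genes tested, and 2 were higher, or 6.06%, beside 5.58%. The lower genes were Acacb, Acadm, Acaa2, Acads and Acot13, and the higher ones Acot2 and Acadsb. After Benjamini-Hochberg adjustment over all genes tested 0 of the 33 were under 0.05 in limma, beside 0.0829% of all genes, and the lowest adjusted p was 0.156.

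In 7 of the 33 genes, or 21.2%, every mutant library was below every control library, beside 13.0% of all genes tested. In 2 genes, Acot2 and Acadsb, every mutant library was above every control library, or 6.06%, beside 7.74%. Without the library labelled mutant replicate 3, 16 of the 33 genes, or 48.5%, lay below every control library, beside 17.6%, and 2 above, beside 14.9%. In the same comparison 7 genes were lower at an unadjusted p under 0.05, or 21.2%, beside 8.81%, and 2 were higher beside 6.42%. In that comparison Acacb and Acot2 had an adjusted limma p under 0.05, beside 2.03% of all genes tested. Among the 33 genes, 7 passed the unadjusted threshold with all libraries, beside 15.0% of all genes tested, and 4 without control replicate 3, beside 11.8%. The count over all genes at the adjusted threshold was 11 with all libraries, 119 without mutant replicate 2 and 269 without mutant replicate 3.

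The mutant libraries were not alike in the pathway. In mutant replicate 1, where Mrps5 was lowest, 24 of the 33 genes were below every control library, beside 38.1% of all genes tested. In mutant replicate 2 19 genes were, beside 26.3%, and 12 genes were so in mutant replicate 3, beside 40.3%. Of the 33 genes, 19 had their lowest value of all libraries in mutant replicate 1, and 18 had their highest in control replicate 3. The summed FPKM of the 33 genes was 1025, 1003 and 1112 in the controls and 898, 962 and 990.5 in the mutants. It averaged 1047 ± 57.8 in controls and 950.3 ± 47.3 in mutants (SD, n = 3 each), and the groups did not overlap. As a share of the FPKM outside the erythroid markers it was 0.257%, 0.247% and 0.269% in controls and 0.228%, 0.236% and 0.251% in mutants, and the groups overlapped.

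**Figure D1:**
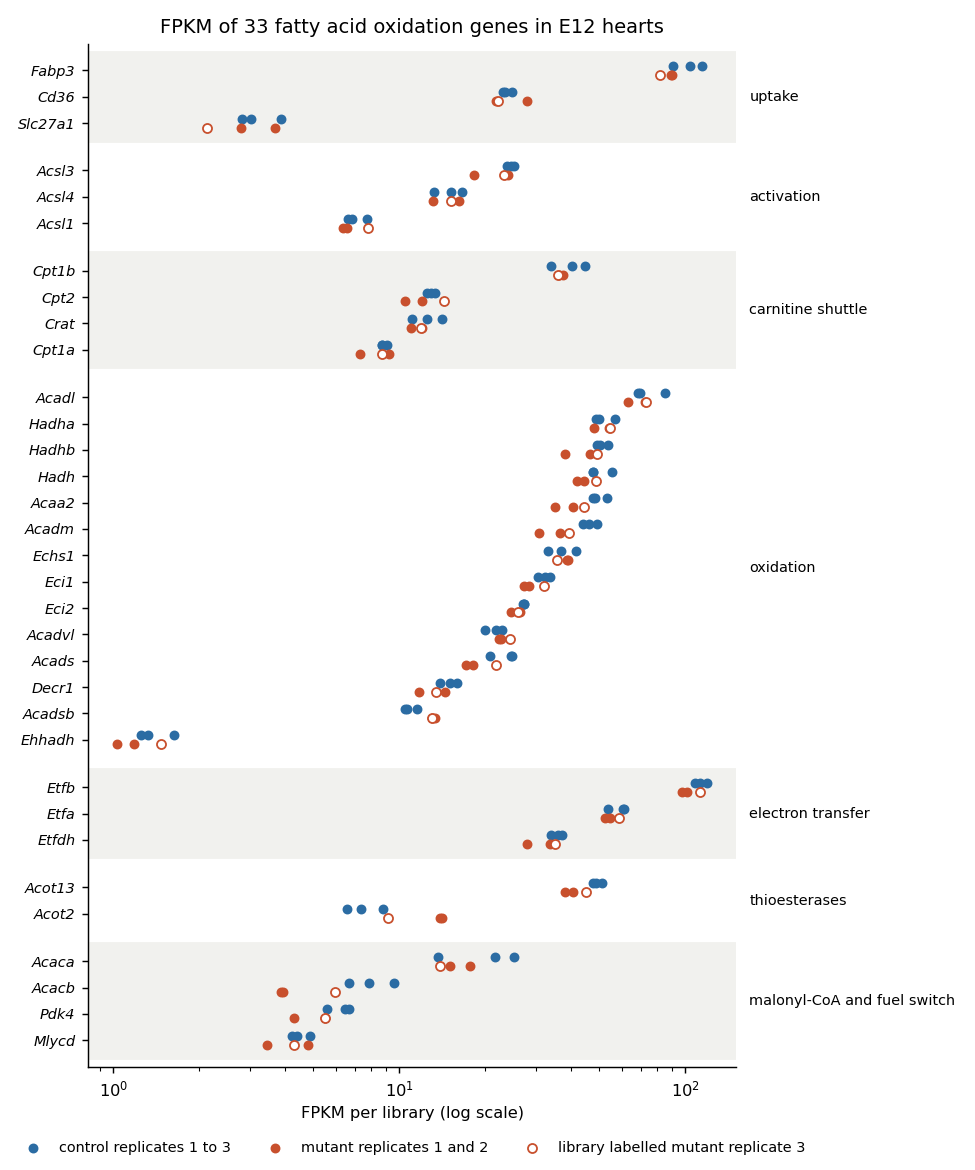
FPKM of the 33 genes in each of the 6 libraries on a log scale, ordered by step and by level, with control replicates in blue, mutant replicates 1 and 2 in filled orange and the library labelled mutant replicate 3 as open circles. Levels ran from a mean FPKM of 1.31 for Ehhadh to 109 for Etfb, and most orange points lie slightly to the left of the blue ones. In 6 genes, Acot2 and Acadsb among them, the log2 fold change was positive.

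**Figure D2:**
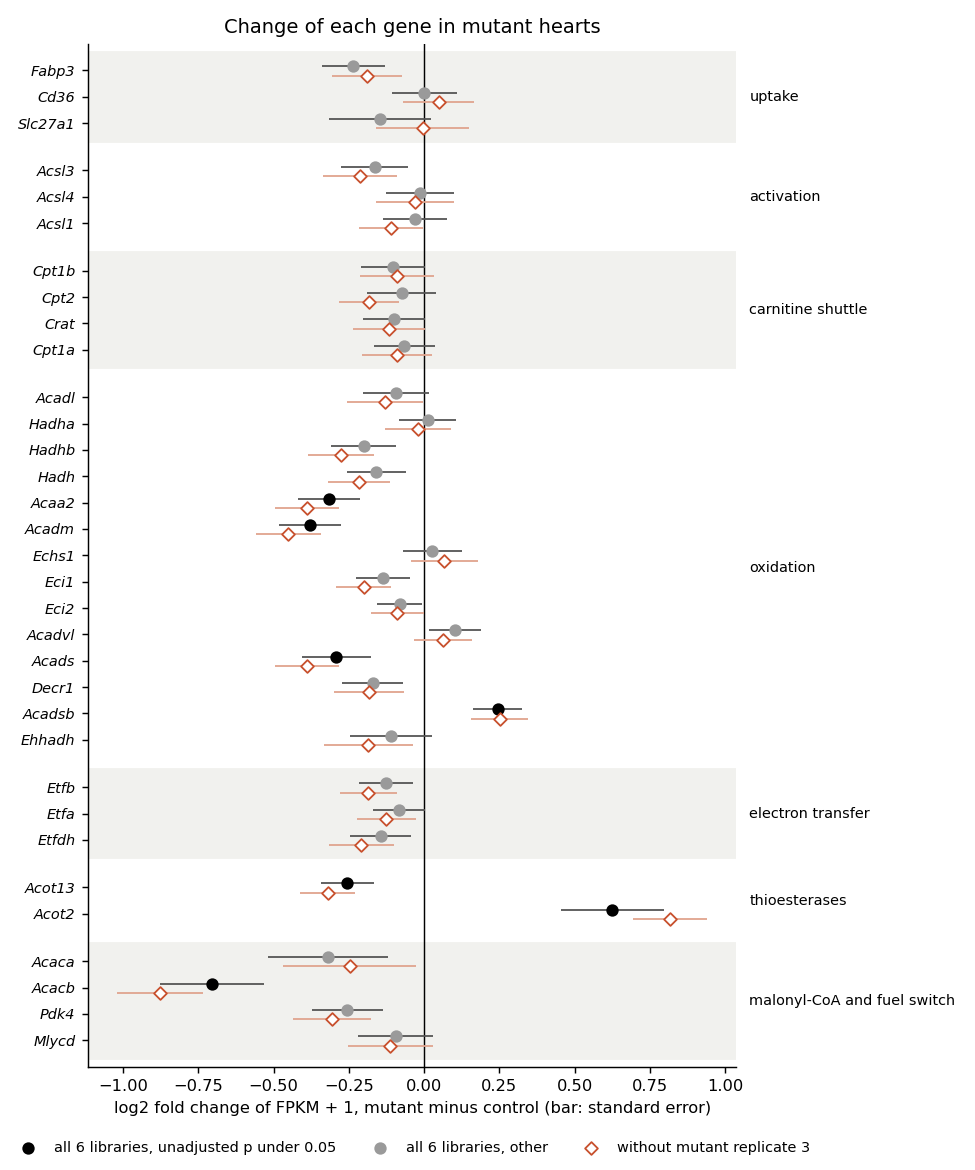
Log2 fold change of FPKM + 1 in mutant against control hearts for the 33 genes, with bars of 1 standard error, from all 6 libraries (circles, black where the unadjusted limma p was under 0.05) and without mutant replicate 3 (diamonds). Acacb, at -0.71, lies farthest to the left and Acot2, at 0.63, farthest to the right, and both lie farther from 0 without that library.

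Levels spanned a wide range over the pathway. By mean FPKM over the 6 libraries, the most abundant were Etfb at 109, Fabp3 at 95.0 and Acadl at 72.0, and the least abundant were Mlycd at 4.34, Slc27a1 at 3.05 and Ehhadh, the peroxisomal bifunctional enzyme, at 1.31. The levels of Etfb and Fabp3 are uncertain, since their transcripts share sequence with other genes. Ranked among all genes tested, the oxidation enzymes ranged from the 4.98 percentile for Ehhadh and the 59.0 percentile for Acadsb to the 92.1 percentile for Hadha and the 94.6 percentile for Acadl. Of the genes that set malonyl-CoA or fuel choice, Acaca stood at the 72.2 percentile, Acacb at the 38.1, Pdk4 at the 35.3 and Mlycd at the 28.2 percentile.

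Uptake was represented by Cd36, a membrane fatty acid translocase, Fabp3, the heart fatty acid binding protein, and Slc27a1, a fatty acid transport protein. Fabp3 was the most abundant of them, at 104, 90.5 and 115 FPKM in controls and 90.1, 89.5 and 81.5 FPKM in mutants. Every mutant library lay below every control library, although control replicate 2 and mutant replicate 1 were nearly equal. Fabp3 had a log2 fold change of -0.24 with a standard error of 0.10, and the unadjusted limma p was 0.0537 (adjusted p = 0.342). It was -0.32 without control replicate 2 (limma, unadjusted p = 0.017), -0.15 without control replicate 3 (limma, unadjusted p = 0.194) and -0.19 without the library labelled mutant replicate 3 (limma, unadjusted p = 0.147). The Fabp3 transcript shares 29.2% of its stretches of 50 bases with a pseudogene, Fabp3-ps1. Cd36 averaged 23.8 ± 0.901 FPKM in controls and 23.9 ± 3.43 FPKM in mutants (SD, n = 3 each), with a log2 fold change of 0.00. With the erythroid level as a covariate Cd36 was at 0.16 (limma, unadjusted p = 0.131). For its most abundant transcript alone it was at -0.13, and without mutant replicate 2 at -0.11 (limma, unadjusted p = 0.49 and 0.226). Slc27a1 had a log2 fold change of -0.15 and groups that overlapped, and it was at -0.0043 without the library labelled mutant replicate 3 and at -0.43 for its most abundant transcript alone.

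Activation is carried out by long-chain acyl-CoA synthetases. Acsl3 had the highest level, at 23.8, 24.6 and 25.2 FPKM in controls and 18.3, 24.0 and 23.4 FPKM in mutants. Mutant replicate 1 stood apart at the low end, and mutant replicate 2 overlapped the controls. The log2 fold changes were -0.16 for Acsl3, -0.01 for Acsl4 and -0.03 for Acsl1, and 0 of these 3 genes had an unadjusted p under 0.05. For the most abundant transcript alone Acsl4 was at -0.36 (limma, unadjusted p = 0.037) and Acsl1 at -0.20 (limma, unadjusted p = 0.164). Without mutant replicate 1 Acsl3 was at -0.05 (limma, unadjusted p = 0.598). Acsl1, the main form of the adult heart, was at 0.272 to 0.314 times the level of Acsl3 in controls and at 0.273 to 0.347 times in mutants. The log2 ratio of Acsl1 to Acsl3 differed by 0.14 (exact permutation test, two-sided, p = 0.3, adjusted p = 0.4 over 4 ratios), and by -0.08 with the most abundant transcript of each.

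The carnitine shuttle was represented by Cpt1a and Cpt1b, which attach carnitine at the outer membrane, by Cpt2, which releases it inside, and by Crat, the acetyl form. Cpt1b, the muscle form, measured 40.3, 33.9 and 44.6 FPKM in the control libraries, against 36.4, 37.6 and 36.0 FPKM in the mutant libraries. The mutant libraries lay inside the control range. It was the predominant form in both groups, at 3.91 to 5.12 times the level of Cpt1a, the form that prevails in liver, in controls and at 4.07 to 4.97 times in mutants. The log2 ratio of Cpt1b to Cpt1a differed by -0.03 between the groups with a standard error of 0.15 (exact permutation test, two-sided, p = 0.9, adjusted p = 0.9 over 4 ratios). The 4 shuttle genes had log2 fold changes between -0.10 and -0.07, and 0 of them had an unadjusted p under 0.05. Without control replicate 2 Cpt1b was at -0.21 and Crat at -0.18 (limma, unadjusted p = 0.0691 and 0.139). Without control replicate 3 Cpt1b was at -0.015 and Crat at -0.018 (limma, unadjusted p = 0.894 and 0.872). The value of Cpt2 was -0.18 without the library labelled mutant replicate 3 (limma, unadjusted p = 0.101) and 0.02 without mutant replicate 1 (limma, unadjusted p = 0.84). The transcript of Cpt1b shares 93.0% of its stretches of 50 bases with a predicted gene, Gm44502, so its value is uncertain where reads were split between them.

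The oxidation step, with 14 of the 33 genes, held 4 of the 7 genes with an unadjusted limma p under 0.05. Acadm encodes the medium-chain acyl-CoA dehydrogenase, which begins each round of oxidation on chains of middle length. It stood at 46.1, 43.8 and 49.0 FPKM in controls and at 30.8, 36.6 and 39.1 FPKM in mutants. Every mutant library was below every control library, and mutant replicate 1 was the lowest. Controls averaged 46.3 ± 2.62 FPKM and mutants 35.5 ± 4.25 FPKM (SD, n = 3 each). This was a log2 fold change of -0.38 with a standard error of 0.10 (limma, unadjusted p = 0.00615, adjusted p = 0.174). Leaving out the library labelled mutant replicate 3 gave -0.45 (limma, adjusted p = 0.0936).

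Acaa2, the mitochondrial thiolase that closes each round, was at 47.5, 48.6 and 53.4 FPKM in the hearts without Cre and at 35.1, 40.7 and 44.2 FPKM in those with it. The groups did not overlap. Its log2 fold change was -0.32 with a standard error of 0.10 (limma, unadjusted p = 0.0149, adjusted p = 0.228), and -0.27 without control replicate 3 (limma, unadjusted p = 0.0576). It was -0.39 without the library labelled mutant replicate 3 (limma, unadjusted p = 0.00631). Acads, the short-chain acyl-CoA dehydrogenase, measured 24.5, 20.8 and 24.8 FPKM in the control libraries, against 18.1, 17.1 and 21.7 FPKM in the mutant libraries. Control replicate 2 was below the library labelled mutant replicate 3, so the groups overlapped. Its log2 fold change was -0.29 (limma, unadjusted p = 0.0329, adjusted p = 0.293), and its unadjusted p was 0.0986 without control replicate 1, 0.103 without control replicate 3, 0.0865 without mutant replicate 1 and 0.105 without mutant replicate 2. Omitting the library labelled mutant replicate 3 gave -0.39 (limma, unadjusted p = 0.00692).

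The dehydrogenases did not all differ in the same direction. Acadsb, which acts on short branched chains and on the breakdown of isoleucine, stood at 10.5, 11.6 and 10.7 FPKM in controls and at 13.0, 13.3 and 13.0 FPKM in mutants. Every mutant library was above every control library, and the mutant libraries lay close together. Acadsb had a log2 fold change of 0.25 with a standard error of 0.08 (limma, unadjusted p = 0.0161, adjusted p = 0.231), and it was 0.22 without control replicate 1 and 0.23 without control replicate 3 (limma, unadjusted p = 0.0554 and 0.0549). It stayed at 0.25 without the library labelled mutant replicate 3 (limma, unadjusted p = 0.0298). Acadl, the long-chain dehydrogenase and the most abundant of them, was at 69.8, 68.4 and 85.2 FPKM in the hearts without Cre and at 63.1, 72.5 and 73.2 FPKM in those with it. Its groups overlapped, with a log2 fold change of -0.09. This was 0.0064 without control replicate 3 and -0.15 without control replicate 2 (limma, unadjusted p = 0.953 and 0.271). Acadvl, the very-long-chain dehydrogenase, had a log2 fold change of 0.10 and overlapping groups.

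Among the remaining enzymes of the spiral, Eci2, an enoyl-CoA isomerase for unsaturated chains, measured 27.3, 27.4 and 27.1 FPKM in the control libraries, against 24.7, 26.5 and 26.0 FPKM in the mutant libraries. The groups did not overlap because the controls were nearly equal, and the log2 fold change was -0.08 (limma, unadjusted p = 0.306), or -0.0039 for its most abundant transcript alone. Log2 fold changes were -0.16 for Hadh, which dehydrogenates hydroxyacyl-CoA, -0.17 for Decr1, the dienoyl-CoA reductase, -0.14 for Eci1, -0.11 for Ehhadh and 0.03 for Echs1, the short-chain enoyl-CoA hydratase, and all 5 had overlapping groups. Of the 14 oxidation genes, 3 were lower and 1 was higher at an unadjusted limma p under 0.05, beside 9.43% and 5.58% of all genes, and their median log2 fold change was -0.12.

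Hadha and Hadhb encode the alpha and beta subunits of the mitochondrial trifunctional protein, which carries out the last 3 reactions on long chains. Hadha was listed at 0.987, 0.986 and 1.06 times the FPKM of Hadhb in the controls and at 1.26, 1.17 and 1.11 times in the mutants. Every mutant library had a higher ratio than any control library, and the library labelled mutant replicate 3 was the closest to the controls. The log2 ratio differed by 0.22 with a standard error of 0.07 (exact permutation test, two-sided, p = 0.1, the smallest that 3 against 3 libraries allow, adjusted p = 0.4 over 4 ratios). Hadha had a log2 fold change of 0.01 and Hadhb of -0.20, and Hadhb had an unadjusted limma p of 0.0948. It was -0.28 without the library labelled mutant replicate 3 (limma, unadjusted p = 0.0359) and -0.10 without mutant replicate 1 (limma, unadjusted p = 0.322). Under quantile normalization Hadhb was at -0.24, and under a replicate block at -0.20 (limma, unadjusted p = 0.0282 and 0.0483). With the most abundant Hadhb transcript alone the difference in log2 ratio was -0.19, in the opposite direction. That transcript, ENSMUST00000114786, held 40.7% of the Hadhb FPKM in the library where it was lowest and 95.9% where it was highest. In control replicate 2 it stood at 20.6 FPKM while ENSMUST00000114783 was listed at 17.7, and the latter was listed at 0.00436 to 0.0529 in the other libraries. The Hadhb transcript also shares 61.5% of its stretches of 50 bases with a predicted gene, Gm13910.

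Hadha and Hadhb lie head to head on chromosome 5, and the promoter is shown because the 2 subunits share it. In RefSeq for GRCm38.p6 their start sites, at 30154980 and 30155253, are 273 bases apart. The 250 bases before the Hadhb start, chr5:30155003-30155252 on the plus strand, are given with the GC box GGGCGGG in capitals, which begins 25 bases before the start.
Hadhb: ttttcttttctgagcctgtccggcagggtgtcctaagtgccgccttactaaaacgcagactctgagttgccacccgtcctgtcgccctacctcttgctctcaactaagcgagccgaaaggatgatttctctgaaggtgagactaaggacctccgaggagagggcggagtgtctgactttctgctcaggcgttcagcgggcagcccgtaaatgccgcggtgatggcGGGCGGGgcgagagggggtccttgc

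Electron transfer from the acyl-CoA dehydrogenases runs through the electron transfer flavoprotein, made of Etfa and Etfb, and through its dehydrogenase Etfdh. Etfb, the most abundant of all 33 genes, was at 113, 108 and 119 FPKM in the hearts without Cre and at 102, 97.3 and 113 FPKM in those with it. The groups overlapped only through the library labelled mutant replicate 3. The log2 fold changes were -0.13 for Etfb, -0.08 for Etfa and -0.14 for Etfdh, and 0 of the 3 had an unadjusted limma p under 0.05. For the most abundant Etfdh transcript alone it was -0.30 (limma, unadjusted p = 0.0398). The most abundant Etfb transcript shares 100% of its stretches of 50 bases with a predicted gene, Gm45233, so its value is uncertain where reads were split between them.

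The thioesterases Acot2 and Acot13, which release free fatty acid from acyl-CoA at the mitochondrion, differed in opposite directions. Acot2, which lies in the mitochondrial matrix, measured 7.38, 6.59 and 8.76 FPKM in the control libraries, against 14.1, 13.9 and 9.11 FPKM in the mutant libraries. Every mutant library was above every control library, and the library labelled mutant replicate 3 was the closest to the controls. Controls averaged 7.58 ± 1.10 FPKM and mutants 12.4 ± 2.83 FPKM (SD, n = 3 each). On the log2 scale it was higher by 0.63 with a standard error of 0.17 (limma, unadjusted p = 0.0059, adjusted p = 0.172). Omitting the library labelled mutant replicate 3 gave a difference of 0.82 (limma, adjusted p = 0.0163).

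Acot13 stood at 47.7, 48.9 and 51.1 FPKM in controls and at 37.9, 40.6 and 45.1 FPKM in mutants. The groups did not overlap. Its log2 fold change was -0.26 with a standard error of 0.09 (limma, unadjusted p = 0.0197, adjusted p = 0.249), and the unadjusted p was 0.0665 without control replicate 3 and 0.0668 without mutant replicate 1. It was -0.32 without the library labelled mutant replicate 3 (limma, unadjusted p = 0.0078).

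Acot2 has a near copy, Acot1, a cytosolic thioesterase that starts 21.6 kb downstream on the same strand of chromosome 12. The Acot2 transcript shares 24.5% of its stretches of 50 bases with Acot1, so part of its reads could be assigned to either. Acot1 was at 5.66, 6.35 and 6.84 FPKM in the hearts without Cre and at 6.71, 7.89 and 5.59 FPKM in those with it. Its groups overlapped and its log2 fold change was 0.08 (limma, unadjusted p = 0.558). Their neighbours Acot3 and Acot4 did not pass the filter on low values.

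The genes that set malonyl-CoA held the largest difference of the 33. Acacb encodes the acetyl-CoA carboxylase at the mitochondrial surface, whose product malonyl-CoA inhibits Cpt1. It measured 9.57, 6.70 and 7.87 FPKM in the control libraries, against 3.92, 3.86 and 5.98 FPKM in the mutant libraries. Every mutant library was below every control library, with the library labelled mutant replicate 3 between the other mutants and the controls. Controls averaged 8.05 ± 1.44 FPKM and mutants 4.58 ± 1.21 FPKM (SD, n = 3 each). This was a log2 fold change of -0.71 with a standard error of 0.17 (limma, unadjusted p = 0.00325, adjusted p = 0.156), and of -0.88 with the library labelled mutant replicate 3 omitted (limma, adjusted p = 0.0238). One transcript, ENSMUST00000031583, held 86.2% to 98.6% of Acacb FPKM in each library, and for it alone the log2 fold change was -0.67.

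Acaca, the cytosolic carboxylase that feeds fatty acid synthesis, stood at 25.2, 21.6 and 13.7 FPKM in controls and at 15.0, 17.7 and 13.9 FPKM in mutants. Control replicate 3 was the lowest of all libraries, so the groups overlapped. Acaca had a log2 fold change of -0.32 (limma, unadjusted p = 0.146), and -0.56 without control replicate 3 (limma, unadjusted p = 0.00331). The transcripts of Acaca were not listed alike across libraries. ENSMUST00000103201 was listed at 8.11 and 8.50 FPKM in control replicates 1 and 2 and at 0.000837 in control replicate 3, where the mutants had 0.00126 to 0.0028. ENSMUST00000020843 was listed at 0 in control replicates 1 and 2, at 9.35 in control replicate 3 and at 8.65, 11.1 and 9.74 in mutant replicates 1, 2 and 3. In both transcripts control replicate 3 was like the mutant libraries, and an Acaca difference taken from a single transcript depends on which one is read.

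Acacb was listed at 0.380, 0.311 and 0.574 times the FPKM of Acaca in the controls and at 0.260, 0.218 and 0.430 times in the mutants. Control replicates 1 and 2 were below the library labelled mutant replicate 3, so the groups overlapped. The log2 ratio differed by -0.49 with a standard error of 0.39 (exact permutation test, two-sided, p = 0.3, adjusted p = 0.4 over 4 ratios), and by -0.77 without that library. Acaca had the higher FPKM in every library, and its transcript shares 55.4% of its stretches of 50 bases with a predicted gene, Gm5182.

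Mlycd, which removes malonyl-CoA, averaged 4.50 ± 0.351 FPKM in controls and 4.17 ± 0.687 FPKM in mutants (SD, n = 3 each), with overlapping groups. Pdk4, a kinase that shuts pyruvate dehydrogenase when fatty acids are burned, measured 6.66, 5.61 and 6.49 FPKM in the control libraries, against 4.30, 5.48 and 5.49 FPKM in the mutant libraries. The groups did not overlap, although control replicate 2 lay just above mutant replicates 2 and 3. Its log2 fold change was -0.26 (limma, unadjusted p = 0.0613), with an unadjusted p of 0.0472 without the library labelled mutant replicate 3 and 0.0455 without control replicate 2. It was -0.16 without mutant replicate 1 (limma, unadjusted p = 0.206) and -0.17 with the erythroid level as a covariate (limma, unadjusted p = 0.268).

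**Figure D3:**
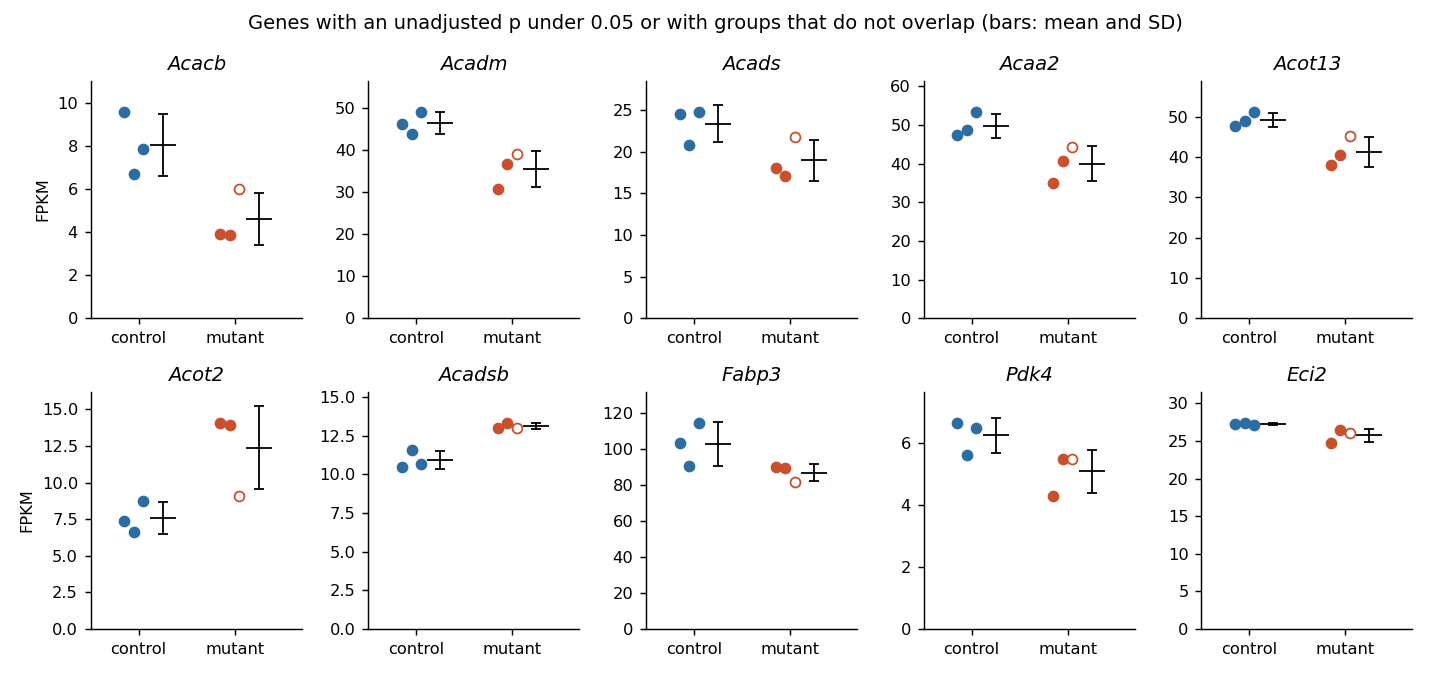
FPKM by library for the 10 genes with an unadjusted limma p under 0.05 or with groups that do not overlap, with the mean and SD of 3 libraries beside the points and open circles for the library labelled mutant replicate 3. In Acacb and Acot2 that library, at 5.98 and 9.11, lies between the other mutants and the controls, and in Acadsb it lies with the other mutants at 13.0.

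**Figure D4:**
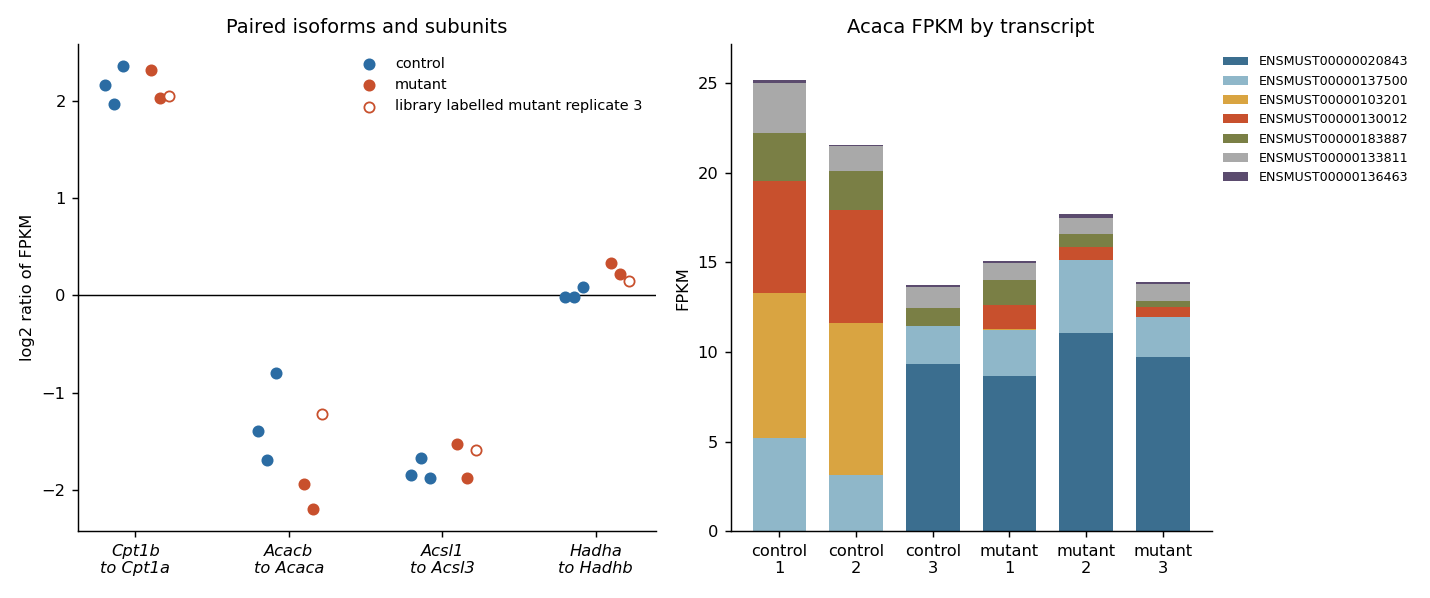
Log2 ratio of FPKM between paired isoforms or subunits in each library (left), and the FPKM of each Acaca transcript stacked per library (right). The ratio of Hadha to Hadhb is above the controls in all 3 mutants, and in control replicate 3, as in the mutants, ENSMUST00000020843 holds the largest share of Acaca, where it is listed at 0 in control replicates 1 and 2.

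Promoters are shown for Acacb and Acot2, the genes with the largest differences in each direction, and for Acadm, since these 3 kept an unadjusted p under 0.05 under all 20 alternative settings. RefSeq windows from 250 bases before to 50 after the start were matched by symbol for GRCm38.p6, and only the 250 bases before the start are printed. Capitals mark the CCAAT box, on either strand, in Acacb and Acot2, and the nuclear receptor hexamer AGGTCA, read on the other strand, in Acadm. The windows are chr5:114165268-114165517 on the plus strand, chr12:83987611-83987860 on the plus strand and chr3:153944644-153944893 on the minus strand.
Acacb: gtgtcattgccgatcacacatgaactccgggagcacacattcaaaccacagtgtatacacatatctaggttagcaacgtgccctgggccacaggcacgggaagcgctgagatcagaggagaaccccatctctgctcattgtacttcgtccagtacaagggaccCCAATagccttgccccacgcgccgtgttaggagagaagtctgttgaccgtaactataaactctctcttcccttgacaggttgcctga
Acot2: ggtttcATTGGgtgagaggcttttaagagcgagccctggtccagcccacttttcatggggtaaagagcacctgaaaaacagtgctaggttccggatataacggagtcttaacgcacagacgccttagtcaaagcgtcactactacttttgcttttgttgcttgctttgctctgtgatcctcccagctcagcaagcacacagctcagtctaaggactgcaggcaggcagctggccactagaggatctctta
Acadm: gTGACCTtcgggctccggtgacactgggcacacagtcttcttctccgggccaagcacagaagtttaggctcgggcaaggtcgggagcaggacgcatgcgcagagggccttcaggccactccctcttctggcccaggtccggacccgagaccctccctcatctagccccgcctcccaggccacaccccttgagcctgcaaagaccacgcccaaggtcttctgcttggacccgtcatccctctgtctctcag

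The CCAAT box begins 87 bases before the Acacb start and 244 before that of Acot2, and the hexamer 249 bases before that of Acadm. Windows were found for 28 of the 33 genes, 31 windows in all, and compared with the 12273 windows of all genes tested. The CCAAT box CCAAT was in 16 of the 31 windows, or 51.6%, beside 37.7% of all. The GC box GGGCGGG was in 17, or 54.8%, beside 46.9%. The hexamer AGGTCA was in 6, or 19.4%, beside 12.0%, and 1 of those is in Acacb 43 bases after the start. The longer element TCAAGGTCA, read by estrogen-related receptors, was in 0 of the 31 beside 0.253%, and the cAMP response element TGACGTCA in 0 beside 3.04%. The composite element TGATGNAAN, read by Atf4 with C/EBP partners, was in Fabp3 and Echs1, or 6.45%, beside 2.1%. Each motif was searched on both strands, matches of AGGTCA include those within TCAAGGTCA, and a match is a description of the letters only.

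A list of regulators, not all of them activators of this pathway, was measured beside it. Of 22 listed, 20 passed the filter, 3 were lower and 2 higher at an unadjusted limma p under 0.05, beside 9.43% and 5.58% of all genes tested, with a median log2 fold change of -0.04. Esrrg, an estrogen-related receptor of oxidative tissues, stood at 15.0, 13.7 and 14.8 FPKM in controls and at 9.66, 10.6 and 12.1 FPKM in mutants, a log2 fold change of -0.40 (limma, unadjusted p = 0.00357, adjusted p = 0.16). Ppargc1a, the coactivator of mitochondrial genes, was at 16.1, 15.7 and 16.0 FPKM in the hearts without Cre and at 12.7, 13.1 and 12.9 FPKM in those with it. Its libraries lay close together within each group, and mutant replicate 3 was among the other mutants. Ppargc1a had a log2 fold change of -0.29 (limma, unadjusted p = 0.00489, adjusted p = 0.168).

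Atf4, a transcription factor of the integrated stress response, was the only one among the 33 genes and the 115 further genes tested to reach an adjusted limma p under 0.05 with all libraries. It measured 52.5, 58.1 and 57.5 FPKM in the control libraries, against 152, 137 and 103 FPKM in the mutant libraries. All mutants were far above the controls, the library labelled mutant replicate 3 the least. It rose by a log2 fold change of 1.19 (limma, adjusted p = 0.0313). The other regulators with an unadjusted p under 0.05 were Esrra at -0.24 and Klf15 at 0.56, named after their values were seen. Ppara, the receptor that fatty acids activate, did not pass the filter and was at 0.329 to 0.671 FPKM over the 6 libraries.

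Around these genes, 142 further genes of lipid metabolism were listed, 141 were in the table and 115 were tested. At an unadjusted limma p under 0.05, 8 were higher and 7 lower, beside 5.58% and 9.43% of all genes tested, and the median log2 fold change was -0.01. Without the library labelled mutant replicate 3, 13 were higher and 9 lower, beside 6.42% and 8.81%. Among genes of triglyceride storage 2 of 13 were higher and 0 lower, and 4 were higher without that library. Dgat2, which makes triglyceride, stood at 1.60, 1.99 and 1.46 FPKM in controls and at 4.23, 4.50 and 2.72 FPKM in mutants, and its groups did not overlap. On the log2 scale Dgat2 differed by 0.83 (limma, adjusted p = 0.126), or by 1.00 with the library labelled mutant replicate 3 left out (limma, adjusted p = 0.00857). Plin2, which coats lipid droplets, averaged 21.9 ± 1.90 FPKM in controls and 27.8 ± 0.565 FPKM in mutants (SD, n = 3 each), with groups that did not overlap and a log2 fold change of 0.33 (limma, adjusted p = 0.168).

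Vldlr, a receptor for triglyceride-rich lipoproteins, was the 1 gene of 9 in the list of further uptake and activation genes with an unadjusted p under 0.05. It was at 10.2, 8.27 and 9.07 FPKM in the hearts without Cre and at 23.1, 17.9 and 11.6 FPKM in those with it, all mutants being above all controls. On the log2 scale it differed by 0.82 (limma, adjusted p = 0.166), or by 1.07 with the library labelled mutant replicate 3 left out (limma, adjusted p = 0.00628). In carnitine supply, 2 of 6 genes were lower and 1 higher, against 1 lower and 0 higher without that library. Over all genes tested, 9.43% were lower and 5.58% higher with all libraries, and 8.81% and 6.42% without that library. Slc22a5, the plasma membrane carnitine carrier, averaged 3.46 ± 0.00694 FPKM in controls and 2.75 ± 0.288 FPKM in mutants (SD, n = 3 each), a log2 fold change of -0.25 (limma, adjusted p = 0.317). Aldh9a1, which acts in carnitine synthesis, had a log2 fold change of 0.32 (limma, adjusted p = 0.275), or 0.22 without that library (limma, unadjusted p = 0.0865).

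In the remaining lists few genes differed. Acss1, the mitochondrial acetyl-CoA synthetase, at 0.56 was the 1 higher gene of 6 in the ketone body list, and Mecr, a reductase of mitochondrial fatty acid synthesis, at 0.29 the 1 of 13 in fatty acid synthesis. Nudt19, a peroxisomal coenzyme A hydrolase, at -0.20 was the 1 lower gene of 9 among further thioesterases and hydrolases. In peroxisomal oxidation 1 of 14 genes was lower, and among further mitochondrial acyl-CoA enzymes and pyruvate dehydrogenase kinases and phosphatases 0 of 16 and 0 of 9 had an unadjusted limma p under 0.05. Over all genes tested the shares were 9.43% lower and 5.58% higher.

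**Figure D5:**
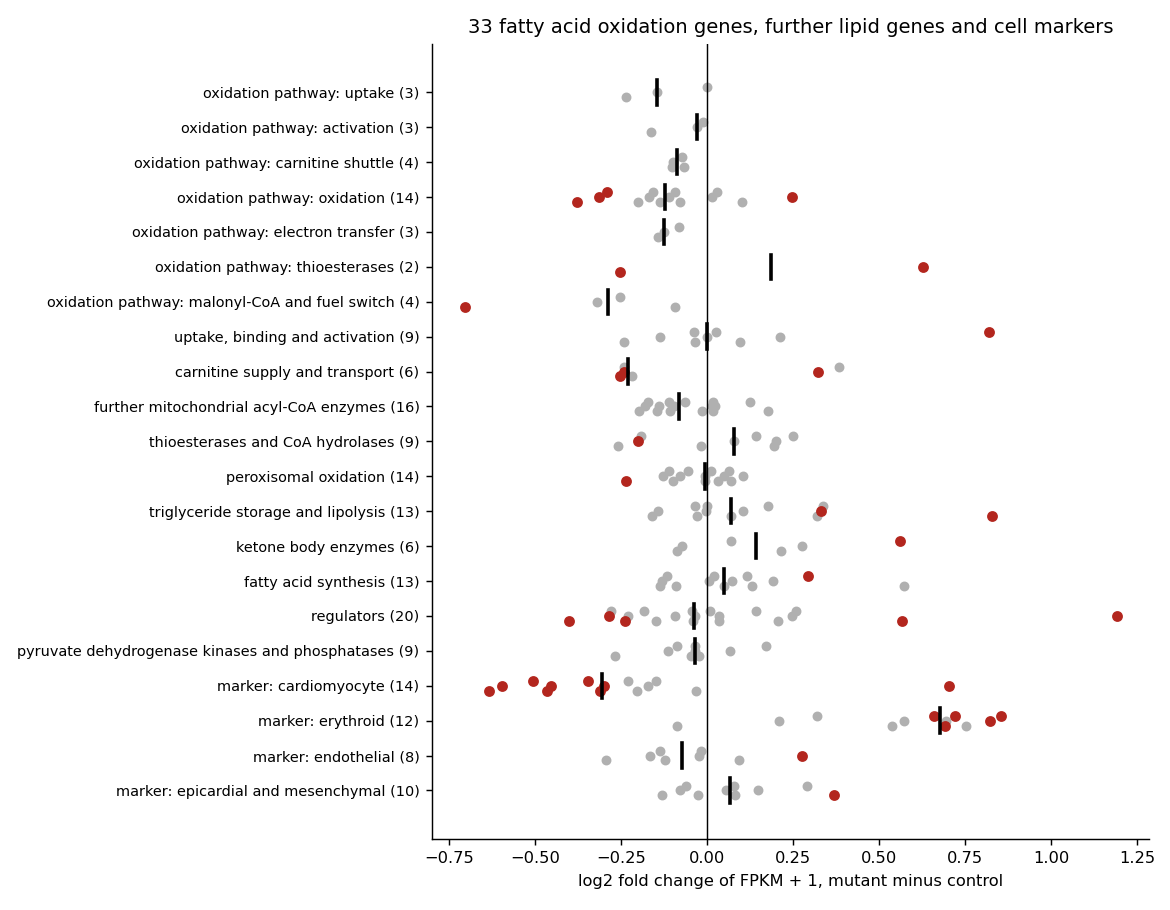
Log2 fold change of each tested gene by list, with the number of genes tested in parentheses, red points for an unadjusted limma p under 0.05 and a black bar at the median of each list. The median of the cardiomyocyte markers was -0.31, close to the -0.29 of the malonyl-CoA and fuel switch step, the lowest of the steps. The erythroid markers, with a median of 0.68, lie to the right.

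Markers of the cell types of the heart were read beside the pathway. Of 14 cardiomyocyte markers, 8 were lower at an unadjusted limma p under 0.05, beside 9.43% of all genes tested. Nppa alone was higher, beside 5.58%. Of the 14, 13 were below 0, beside 55.0% of all genes tested. Where the median log2 fold change of the 33 genes was -0.11, that of the cardiomyocyte markers was -0.31. Their summed FPKM was 12321 to 14830 in control and 10745 to 12183 in mutant libraries, so that the groups did not overlap, and 0 of the 14 were at 0. Tnnt2, cardiac troponin T, which defines these cells, averaged 992 ± 48.9 FPKM in controls and 656 ± 34.7 FPKM in mutants (SD, n = 3 each). In a whole heart, fewer cardiomyocytes and less RNA of a gene per cardiomyocyte cannot be told apart, and the part of cardiomyocyte content in the lower values of the pathway was not tested.

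Of 12 erythroid markers in the table, 11 were above 0, where 55.0% of all genes tested were below 0. At an unadjusted limma p under 0.05, 5 were higher, beside 5.58% of all genes tested. The summed FPKM of the erythroid markers was 55714 to 62274 in control and 49376 to 121195 in mutant libraries, so that the groups overlapped. Without the library labelled mutant replicate 3, 0 of the 12 had an unadjusted limma p under 0.05. With the erythroid level of each library as a covariate, Acacb had a log2 fold change of -0.79, Acadm of -0.33 and Acot2 of 0.75, and their unadjusted limma p was 0.00793, 0.0383 and 0.00859. In the same fit Acaa2 was at -0.28, Acot13 at -0.26 and Acads at -0.36, with an unadjusted limma p of 0.0675, 0.0534 and 0.0334. With erythroid genes removed and the libraries rescaled, Acads was at -0.27 (limma, unadjusted p = 0.0525).

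The groups overlapped in the summed level of the remaining markers. The summed FPKM was 208 to 227 in control and 194 to 227 in mutant libraries for 8 endothelial markers, 394 to 404 and 350 to 462 for 10 epicardial and mesenchymal markers, and 13.4 to 15.3 and 9.45 to 16.3 for 6 macrophage markers. Of the epicardial and mesenchymal sums, those of mutant replicates 1 and 2, at 431 and 462, were above every control, and that of the library labelled mutant replicate 3 was below. Without that library 3 of the 10 were higher at an unadjusted limma p under 0.05, beside 6.42% of all genes tested. With it 1 was higher, beside 5.58%. The summed FPKM was 23.8 to 320 and 96.1 to 192 for 7 liver markers, which were highest in control replicate 2. Of 4 adipocyte markers 0 passed the filter, Lep and Cfd were listed at 0 in every library, and the highest value was 0.0804 FPKM.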

How the data were processed

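Hearts of 3 control and 3 mutant pools were sequenced after removal of ribosomal RNA, with a directional library kit per the labels. The authors deposited FPKM values for 60776 transcripts, normalized by transcript length and library size. The submitters' processing notes name Bowtie2 2.2.8, HISAT2, StringTie 1.3.1, Cuffdiff 2.1.1 and the build mm9, with no role or order. The study's methods describe gene-level read counting for poly(A)-selected RNA of adult hearts. For these embryonic libraries the annotation release, the strand setting and the step that gave the transcript values are not given in the sources used here. Gene symbols were taken from the table.

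Transcript FPKM were summed per gene identifier, and log2(FPKM + 1) was tested with limma 3.58.1 in R 4.3.3 (lmFit and eBayes with trend, two-sided, all 6 libraries) over 13262 genes that reached an FPKM of 1 in 3 or more libraries, with Benjamini-Hochberg adjustment. A fold change on this scale understates that of genes with low FPKM. Ratios of paired genes used exact permutation tests over every split of the 6 libraries into groups of 3, written in Python 3.11.15. The fit was tested on simulated data.

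The 33 genes, the further lists and the markers were chosen with earlier results of these data known. Genes given in full are those with an unadjusted p under 0.05 or groups that do not overlap, and the most abundant gene of each step. Further genes were named where both held, at most 3 per list by p. Promoters are from RefSeq for GRCm38.p6, matched by symbol, and shared stretches of 50 bases were counted in GENCODE M21 transcripts. Alternatives to pseudocount, filter, scaling, covariate, transcript choice, variance model and pairing, and leaving out each library, were tried. Removing erythroid genes together with mutant replicate 3 was chosen after seeing the data.

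Same-numbered libraries are different pools and the labels state no pairing, so the numbers were not taken to pair them. After subtracting group means, same-numbered libraries correlated at 0.215, 0.108 and 0.0892 between groups, and the others at -0.168 to 0.0488. Without read counts, no interval for counting error can be given.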

Additional observations from a re-analysis of the deposited data

How the results depend on the processing

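Acacb, Acadm and Acot2 kept their direction and an unadjusted limma p under 0.05 under all 20 alternative settings, with log2 fold changes of -0.88 to -0.59, -0.45 to -0.28 and 0.53 to 0.83. Acaa2 and Acadsb missed that threshold under 2 settings each, Acot13 under 3 and Acads under 6, with no change of sign. For the most abundant Acaca transcript alone the log2 fold change was 2.31, reversed from -0.32, because that transcript is listed at 0 in control replicates 1 and 2.

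The number of genes with an adjusted p under 0.05 was 11, and it was 5 with no filter, 4 with the most abundant transcript, 6 without the trend and 5 to 269 when a library was left out. At an unadjusted p it was 1991, 1314 at a mean FPKM of at least 5, and 1216 to 2166 when a library was left out. Of the 33 genes, 4 to 9 passed the unadjusted threshold when a library was left out. Mrps5 ranged from -0.66 to -0.23 in those settings. Removing erythroid genes together with mutant replicate 3 gave 237 genes and an Mrps5 value of -0.64, with an unadjusted p of 0.00207. With the most abundant transcript the log2 ratio of Acsl1 to Acsl3 differed by -0.082 and that of Hadha to Hadhb by -0.19, and that of Acacb to Acaca gave no finite value. The cause of these shifts was not tested.

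Under a replicate block the adjusted threshold was passed by 4 genes, Mrps5 stayed at -0.44 with an unadjusted p of 0.0327, and Hadhb at -0.20 with 0.0483. After subtracting group means, every library correlated best with the same-numbered library of the other group, a hint from the data and not the design. FPKM without read counts leave the precision of genes with low values, such as Ehhadh and Slc27a1, unknown.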
